A study of Mus musculus with 4 samples.

Results

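Amino acid transporters are the membrane carriers that bring amino acids into cells, exchange them across the plasma membrane and move them in and out of lysosomes and synaptic vesicles. The genes described here were all those whose symbol falls in the solute carrier families Slc1, Slc6, Slc7, Slc36, Slc38 and Slc43, with the heavy chains Slc3a1 and Slc3a2. The rule found 60 genes among 23185 with a gene symbol, each read by 1 probe set. It goes by symbol, so the Slc6 carriers of monoamines, taurine and creatine are among the 60.

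Expression was read on 4 Affymetrix arrays of mouse RNA, each from a different cell population. Day0 is the fresh isolate of club cells, the secretory cells of the airway lining, from adult lung. The 3w+Dox population (Club-iPL cells) had 3 weeks of culture with doxycycline, a drug commonly used to switch on inducible genes. The population named 3w+Dox+2w-Dox then had 2 weeks without the drug, and its cells are called withdrawn cells. The iPS population consisted of induced pluripotent stem cells derived from club cells. The labels give no strain, genotype, transgene promoter, clone, sort or feeder layer, and cells that were cultured but never given doxycycline were not analysed here, so culture time and drug cannot be told apart. Values are log2 signals. Where 4 signals follow a gene's name with no other label, they stand in the order Day0, 3w+Dox, withdrawn and iPS. With 1 array for each population there is no replicate check and no p-value, and precision is limited by how few arrays there are. A gene was called higher or lower when its signals on 2 arrays differed at least 4-fold (2 log2 units) and the brighter one reached 6.67, the median over all signals in the table. Calls at 2-fold (1 log2 unit) used the same rule.

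The arrays held markers of several cell types. The 3 club cell markers had median signals of 13.52, 12.44, 13.04 and 4.18 in that order, although Scgb3a2 among them read 10.21, 6.25, 8.81 and 3.86. At Day0 all 3 ciliated, all 4 alveolar type 2 and all 3 alveolar type 1 markers were also at or above 6.67. Their summed signals there (log2 of the linear sum) were 12.30, 14.77 and 13.43, beside 14.74 for the club cell markers. Of 5 fibroblast markers 2 reached 6.67 at Day0 and 5 on every other array, with medians of 6.18, 12.37, 12.06 and 9.45 and summed signals of 9.16, 14.58, 14.49 and 12.35 (log2 of the linear sum). Of 5 leukocyte markers 2, 5, 5 and 3 reached it, with medians of 6.47, 10.24, 11.12 and 6.89 and summed signals of 9.54, 12.82, 13.44 and 10.61. The 3 smooth muscle and pericyte markers had summed signals of 8.03, 13.36, 13.15 and 11.35. Of 5 pluripotency markers, 4 were at or above 6.67 in iPS cells and 0 on each other array. In such bulk samples, fewer cells of a type and less RNA per cell cannot be told apart. Unless a value is given beside it, the part of these cell types in a transporter difference was not tested.

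Carriers differ in what drives them. Glutamate carriers of the Slc1 family and most Slc6 and Slc38 carriers use the sodium gradient, Slc36 carriers use protons, and Slc43 carriers work by facilitated diffusion. Many Slc7 proteins are light chains that exchange amino acids and reach the cell surface only when joined by a disulfide bond to a heavy chain, Slc3a2 (CD98) or Slc3a1. Cells that grow fast depend on such carriers for glutamine, leucine, arginine and cystine, and several of the genes are induced by the transcription factor Atf4 when amino acids run short.

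Many of the carriers gave dim signals on every array. Of the 60 genes, 25 were at or above 6.67 on all 4 arrays and 22 were below it on every array, which is 41.7% and 36.7%, against 41.7% and 39.1% of all named genes. The 22 dim genes lay between 3.35 and 6.63 and spanned at most 0.98 log2 units over the arrays. They included the noradrenaline, dopamine and serotonin carriers Slc6a2, Slc6a3 and Slc6a4, the glycine carrier Slc6a5 of inhibitory neurons, the GABA carriers Slc6a11 and Slc6a13, the betaine carrier Slc6a12, and the kidney and gut carriers Slc6a18, Slc6a19 and Slc7a9. The heavy chain Slc3a1, which pairs with Slc7a9, was also among them, at 6.03, 5.27, 5.62 and 5.69. Slc7a10, a light chain for serine and glycine, read 6.54, 6.38, 6.56 and 6.63. The other dim genes were Slc1a7, Slc6a7, Slc6a16, Slc6a21, Slc7a12, Slc7a13, Slc7a14, Slc7a15, Slc36a3 and Slc38a8. Of the 25 bright genes, 8 stayed within 2-fold over all 4 arrays, namely Slc1a4, Slc3a2, Slc6a6, Slc7a6, Slc36a1, Slc38a2, Slc38a9 and Slc38a10. A dim signal gives no measure of absence, and no detection calls were used.

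**Figure D1:**
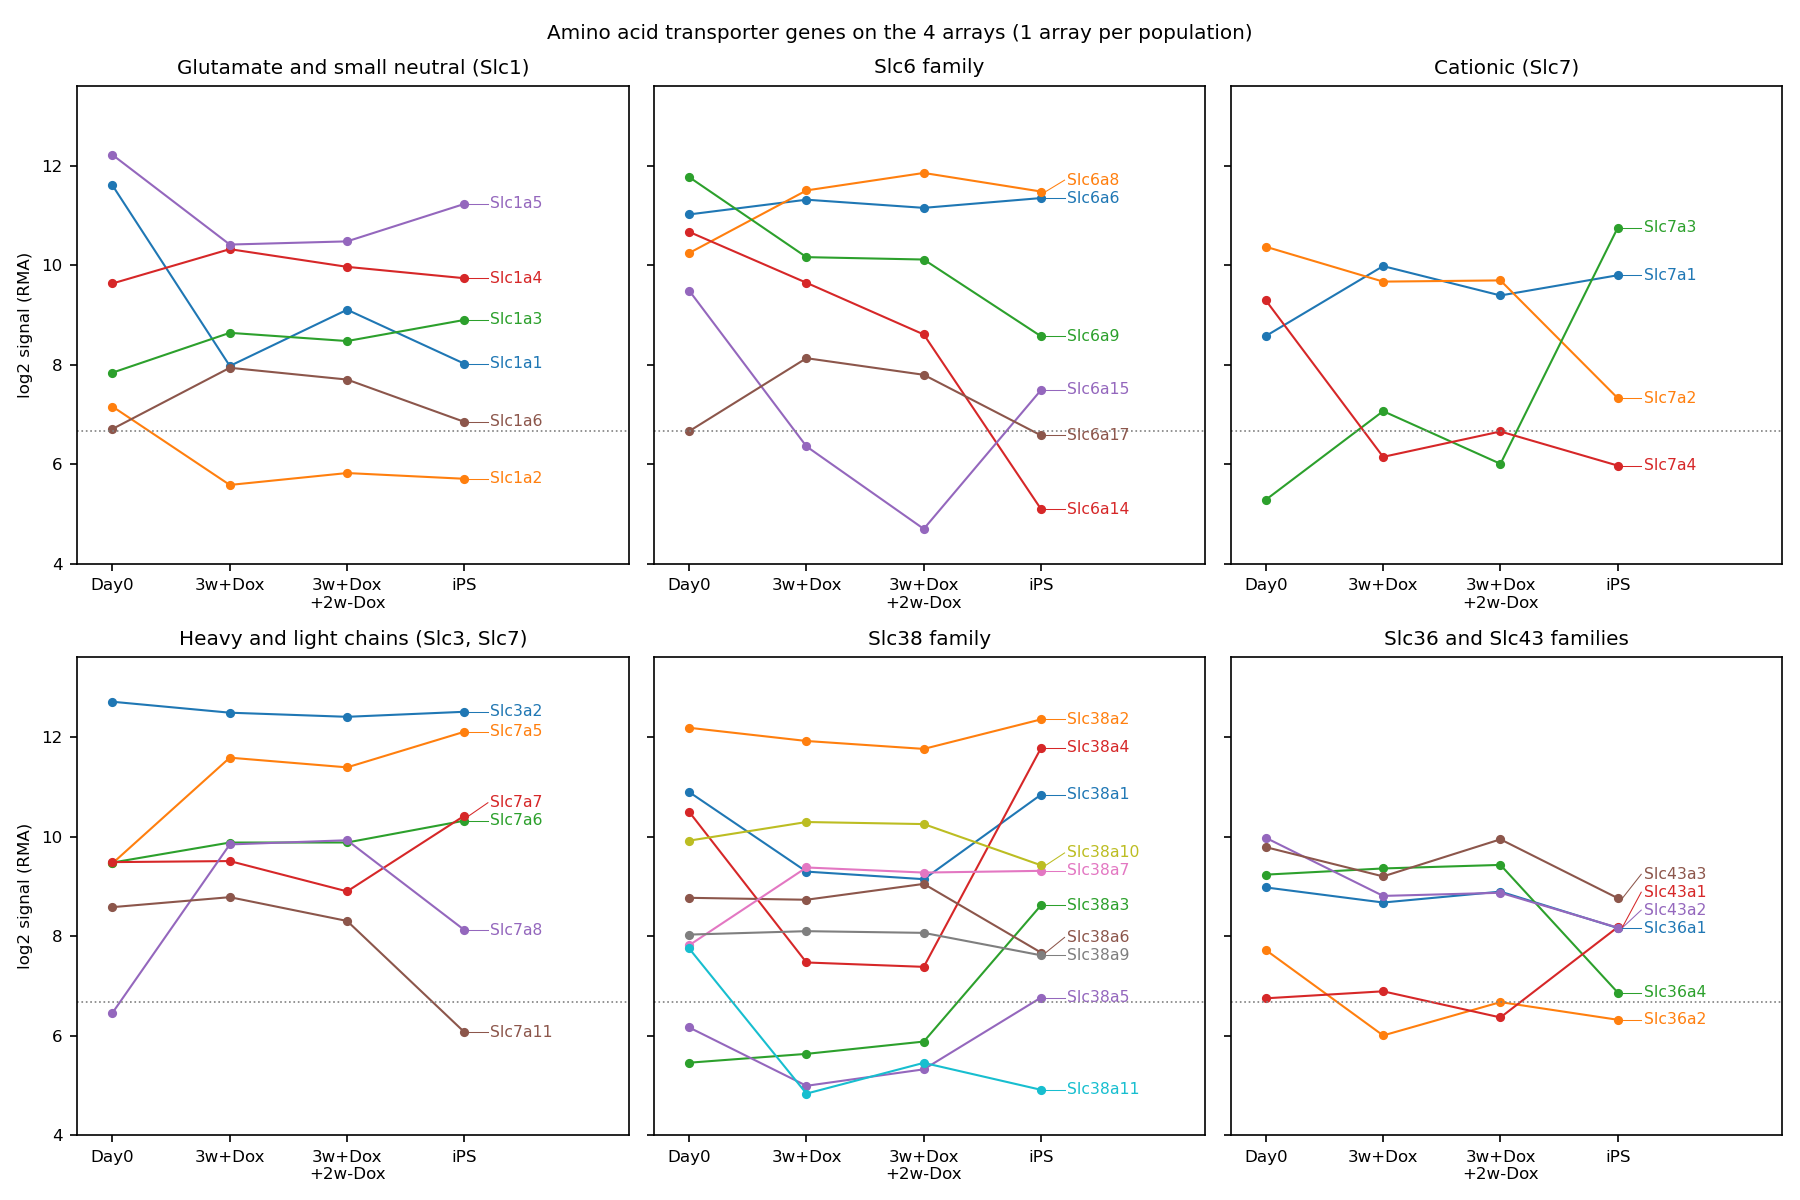
Log2 signal (y axis) of the 38 transporter genes at or above 6.67 on at least 1 array, on each of the 4 arrays (x axis), by family. Points are single arrays, lines join the points of 1 gene, and the dotted line marks 6.67. Slc3a2 and Slc38a2 run flat near the top, Slc7a3 and Slc38a3 are highest on the iPS array, and Slc38a4 is low on both doxycycline-treated arrays.

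Against Day0, the transporter genes were called lower more often than higher on each of the other arrays. At 3w+Dox 7 of 60 were called at 4-fold, beside 7.19% of all named genes, 2 of them higher and 5 lower, which is 3.33% and 8.33%, beside 4.31% and 2.88%. In withdrawn cells 7 were called, beside 5.90%, 1 higher and 6 lower, beside 4.05% and 1.85%, and with arrays centred on bright genes 2 were higher and 5 lower. In iPS cells 11 were called, beside 10.8%, 3 higher and 8 lower (13.3%), beside 4.89% and 5.90%, and with the same centring 3 were higher and 9 lower. At 4-fold the share called lower was above the background in all 3 comparisons, while the share called higher was close to or below it. At 2-fold 20 were called at 3w+Dox (33.3%, beside 16.2%), 8 higher and 12 lower, beside 8.67% and 7.52%. In withdrawn cells 17 were called (28.3%, beside 15.6%), 5 higher and 12 lower, beside 7.85% and 7.76%. In iPS cells 24 were called (40%, beside 25.5%), 10 higher and 14 lower, beside 13.1% and 12.4%. At 2-fold the shares called higher and lower were thus both above the background in all 3 comparisons, although the higher share in withdrawn cells (8.33%) was close to it. The 3 comparisons share the Day0 array, so its signals enter all of them. Over the 60 genes the median difference from Day0 was -0.16 on doxycycline, -0.10 after withdrawal and 0.01 in iPS cells, against -0.09, -0.08 and 0.00 over all named genes.

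**Figure D2:**
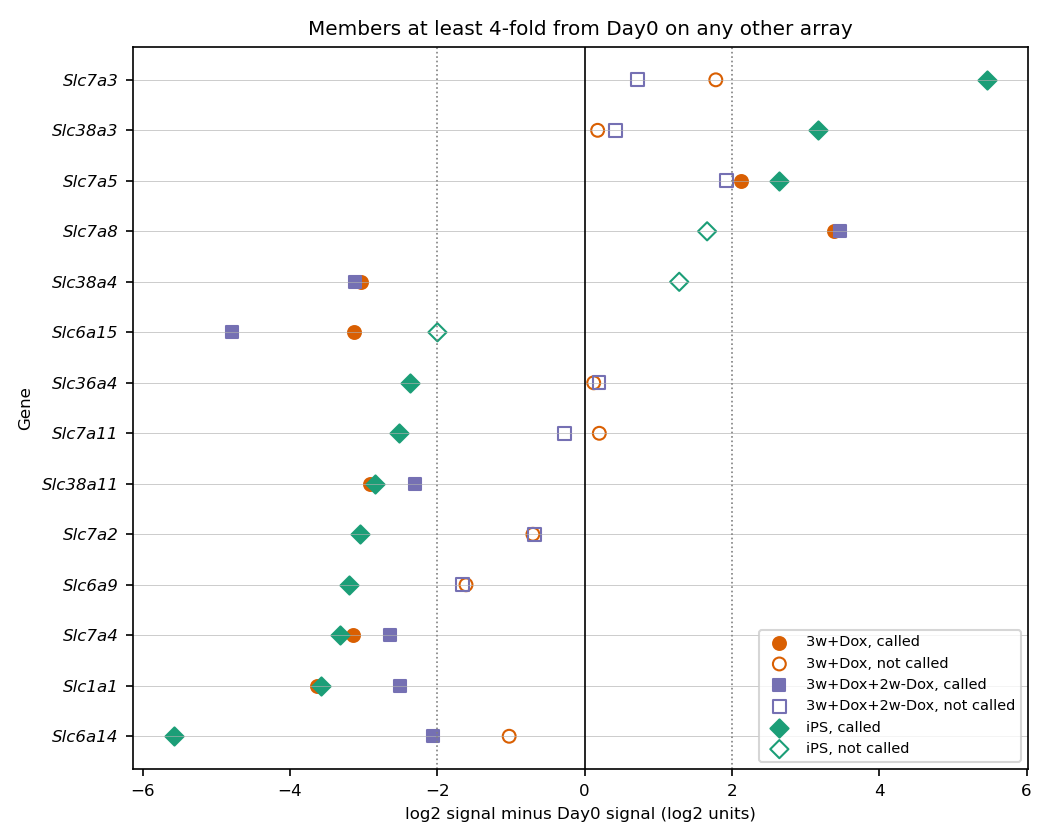
Difference from the Day0 log2 signal (x axis, log2 units) for the 14 transporter genes (y axis) called at 4-fold on any other array. Filled symbols are calls, open symbols are not, and dotted lines mark 4-fold. Slc1a1, Slc7a4 and Slc38a11 lie left of the line on all 3 arrays, Slc7a3 reaches 5.47 and Slc6a14 reaches -5.58 in iPS cells.

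The heavy chain and its light chains differed in profile. Slc3a2 (Entrez gene 17254), the heavy chain that carries most Slc7 light chains to the surface, read 12.71 (Day0), 12.49 (3w+Dox), 12.41 (withdrawn) and 12.51 (iPS). All 4 signals lay within 0.30 log2 units. Its partners Slc7a5, Slc7a8 and Slc7a11 each spanned more than 2 log2 units.

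Slc7a5 (Entrez gene 20539), known as LAT1, the light chain that imports leucine and other large neutral amino acids, read 9.46, 11.59, 11.39 and 12.11. It was low on the fresh isolate and high on every array of cultured cells. The difference from Day0 was 4.36-fold at 3w+Dox, 3.81-fold in withdrawn cells, just under the 4-fold line, and 6.25-fold in iPS cells. Slc7a8 (Entrez gene 50934), known as LAT2, a light chain of overlapping substrates, read 6.46, 9.84, 9.93 and 8.12 on the same arrays. The signal exceeded that of Day0 by 10.4-fold on doxycycline, 11.1-fold after withdrawal and 3.17-fold in iPS cells. The fibroblast markers, with medians of 6.18, 12.37, 12.06 and 9.45, were likewise lowest at Day0, higher in iPS cells and highest on the other arrays. The same order held for the medians of the leukocyte markers (6.47, 10.24, 11.12 and 6.89) and of the smooth muscle and pericyte markers (5.94, 8.88, 8.22 and 6.48). The part of these cell types in the Slc7a8 values was not tested.

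Slc7a11 (Entrez gene 26570), known as xCT, the light chain that takes up cystine for glutathione synthesis in exchange for glutamate, read 8.58, 8.78, 8.30 and 6.07. The Day0, 3w+Dox and withdrawn signals lay within 1.39-fold of each other and the iPS signal was low, 5.71-fold below Day0 and 6.56-fold below 3w+Dox. The remaining partners differed less. Slc7a7 and Slc7a6, which exchange cationic for neutral amino acids, were both brightest in iPS cells. Slc7a7, a carrier also well known in macrophages, read 9.49, 9.51, 8.90 and 10.42. All 5 leukocyte markers reached 6.67 on the 3w+Dox and withdrawn arrays, and the part of leukocytes in the Slc7a7 values was not tested. Slc7a6 read 9.48, 9.88, 9.88 and 10.32. Of the 10 light chain genes, 5 were at or above 6.67 on some array.

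The promoter of Slc7a11 is a textbook site of the amino acid response element, through which Atf4 acts. RefSeq promoters of the GRCm38.p6 build, from 250 bases before to 50 after the start, matched 43 of the 60 genes with 64 promoters. The core of the element bound by Atf4, TGATGNAA on either strand, was found in 5 of the 64, from 4 genes (Slc1a4, Slc6a21, Slc7a7 and Slc7a11), and in 3.97% of all 32851 promoters. Slc7a11 holds a pair, 1 on each strand. Its 250 bases before the start are shown because its signal was low in iPS cells alone. The Slc36a4 and Slc7a2 signals were too. No such element was found in the Slc36a4 promoter, and Slc7a2 was not among the 43 genes with a promoter. Both Slc7a11 elements are in capitals and begin 66 and 47 bases before the start (minus strand, chr3:50443614-50443863).

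Slc7a11: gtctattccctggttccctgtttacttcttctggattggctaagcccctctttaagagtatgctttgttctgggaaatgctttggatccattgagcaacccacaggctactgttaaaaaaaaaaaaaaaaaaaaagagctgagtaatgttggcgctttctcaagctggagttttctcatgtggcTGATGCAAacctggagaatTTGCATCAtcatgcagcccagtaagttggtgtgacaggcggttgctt

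The second of these elements overlaps a match to the octamer ATTTGCAT, the site of POU factors such as Oct4, which 1.74% of all promoters hold on either strand and which among the members was found for Slc7a11 and Slc6a12. The latter was dim on every array. Elements of Slc1a4 and Slc7a7 are shown for comparison, with the matched letters in capitals. The Slc1a4 window is on the minus strand at chr11:20332689-20332753, its element beginning 4 bases before the start. The Slc7a7 window is on the minus strand at chr14:54417920-54417981, its element beginning 1 base before 1 of that gene's annotated starts.

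Slc1a4: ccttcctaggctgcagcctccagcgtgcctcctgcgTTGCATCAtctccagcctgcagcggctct
Slc7a7: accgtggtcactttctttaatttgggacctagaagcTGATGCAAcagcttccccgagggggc

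The carriers with these letters had different profiles: Slc7a11 was lowest in iPS cells, Slc7a7 was highest there, and Slc1a4 differed from Day0 by at most 1.61-fold.

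The cationic carriers, which import arginine and lysine without a heavy chain, differed in which population was brightest. Slc7a3 (Entrez gene 11989), a cationic carrier best known from brain, read 5.28, 7.06, 6.0 and 10.75. The iPS signal stood far above the others, of which only that at 3w+Dox reached 6.67. It was 44.3-fold above Day0, rank 37 from the highest among the 23185 named genes, 12.9-fold above 3w+Dox and 26.8-fold above withdrawn cells, although folds over signals this dim are not exact. Within the cultures it was 2.08-fold lower after withdrawal than on doxycycline.

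Slc7a2 (Entrez gene 11988), the carrier induced with nitric oxide synthesis in activated macrophages, went the other way. It read 10.37, 9.67, 9.69 and 7.32. The iPS array was the low one, 8.25-fold under Day0 and 5.07-fold under 3w+Dox. Slc7a1, the widely expressed cationic carrier, read 8.57, 9.98, 9.39 and 9.80, so it was lowest at Day0, by 2.65-fold against 3w+Dox and 2.33-fold against iPS cells. Slc7a4, a relative with no settled transport activity, read 9.29, 6.14, 6.65 and 5.97 and was highest at Day0, 8.86-fold above 3w+Dox, with iPS cells at -3.32 from Day0.

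Among the Slc1 carriers, Slc1a1, Slc1a2 and Slc1a5 were brightest at Day0. Slc1a1 (Entrez gene 20510), a sodium-coupled glutamate and cysteine carrier of neurons and epithelia, read 11.60, 7.97, 9.10 and 8.02. Day0 stood apart from the other arrays. The signal was 12.4-fold lower at 3w+Dox, and withdrawn cells were 2.19-fold above 3w+Dox, so that 31.2% of the log2 difference from Day0 was undone. The other glutamate carriers had smaller ranges. Slc1a3, the glutamate carrier of astrocytes, read 7.84, 8.64, 8.47 and 8.90, Slc1a2, also a glial carrier, read 7.15, 5.58, 5.82 and 5.70, and Slc1a6, the carrier of Purkinje cells, read 6.71, 7.93, 7.70 and 6.85.

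Slc1a5 (Entrez gene 20514), known as ASCT2, a major glutamine importer of dividing cells, read 12.22, 10.41, 10.48 and 11.23. Its highest signal was that of the fresh isolate, 3.49-fold above 3w+Dox and 1.98-fold above iPS cells, both short of the 4-fold rule. Its relative Slc1a4, a carrier of alanine, serine and cysteine, read 9.63, 10.32, 9.96 and 9.74 and stayed within 1.61-fold of Day0 on every array.

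The Slc38 family, which brings in glutamine, alanine and other small neutral amino acids with sodium, included carriers that were low in doxycycline-treated cells and high in pluripotent cells. Slc38a4 (Entrez gene 69354), an imprinted gene in mouse that encodes a carrier known from liver and placenta, read 10.50, 7.47, 7.38 and 11.78. The 3w+Dox and withdrawn arrays were low and the Day0 and iPS arrays high. It was 8.16-fold below Day0 at 3w+Dox and 8.67-fold below in withdrawn cells, and iPS cells were 19.9-fold above 3w+Dox, rank 80 from the highest in that comparison. Slc38a1, a close relative, read 10.89, 9.30, 9.14 and 10.84, low on the same 2 arrays with a smaller range, 3.03-fold between Day0 and 3w+Dox.

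Slc38a2 (Entrez gene 67760), the carrier induced when cells run short of amino acids, was steady by comparison. It read 12.19, 11.92, 11.76 and 12.36, within 1.51-fold over all 4 arrays. Slc38a3, a glutamine and histidine carrier of liver, kidney and brain, was bright in iPS cells alone. It read 5.45, 5.63, 5.88 and 8.62, 8.98-fold above Day0. Slc38a5, which has similar substrates, read 6.16, 4.99, 5.32 and 6.76, so iPS cells were 3.42-fold above 3w+Dox. Slc38a11, an orphan of the family, read 7.75, 4.83, 5.45 and 4.91 and was at or above 6.67 at Day0 alone.

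Of the carriers that work at the lysosome, Slc38a9 and Slc36a1 were steady and Slc36a4 and Slc38a7 were not. Slc38a9, the arginine sensor that feeds lysosomal amino acids to the growth kinase mTORC1, read 8.03, 8.10, 8.06 and 7.61, within 1.40-fold. Slc38a7, which exports glutamine and asparagine from lysosomes, read 7.81, 9.38, 9.28 and 9.31, so the other 3 arrays lay close together and Day0 was lower, by 2.96-fold against 3w+Dox. Slc36a1, a proton-coupled exporter of small amino acids from lysosomes, read 8.98, 8.67, 8.89 and 8.16. Its relative Slc36a4, a carrier of proline and tryptophan, read 9.23, 9.36, 9.43 and 6.86, with only the iPS array low, 5.17-fold below Day0. Of their relatives, Slc36a2, a glycine and proline carrier, read 7.72, 6.0, 6.67 and 6.32. Slc38a6 read 8.77, 8.73, 9.05 and 7.67 and Slc38a10 read 9.92, 10.29, 10.25 and 9.42.

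The E-box CACGTG, which reads the same on both strands and is bound by Myc and related factors, was found in 9 of the 64 promoters, 1 each of Slc1a6, Slc1a7, Slc6a3, Slc6a16, Slc7a14, Slc36a1, Slc38a5, Slc38a7 and Slc43a1, and in 7.15% of all promoters. Of these genes Slc1a7, Slc6a3, Slc6a16 and Slc7a14 were dim on every array, Slc36a1, whose promoter holds 2 E-boxes, was lowest in iPS cells (-0.82 from Day0), and Slc1a6 and Slc38a5 were within 2-fold of Day0 there. No member promoter held both it and another of the searched motifs. Windows of Slc38a7 (minus strand, chr8:95853484-95853561) and Slc43a1 (plus strand, chr2:84840223-84840300) are shown with the E-box in capitals as examples. They were chosen because these 2 of the 9 were at least 2-fold above Day0 in iPS cells, beside 13.1% of all named genes. Slc38a7 was as high at 3w+Dox (9.38) and in withdrawn cells (9.28) as in iPS cells (9.31).

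Slc38a7: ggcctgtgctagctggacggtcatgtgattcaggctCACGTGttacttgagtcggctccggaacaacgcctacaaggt
Slc43a1: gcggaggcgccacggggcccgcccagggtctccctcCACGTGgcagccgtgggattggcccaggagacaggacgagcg

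A match of letters is a description and not a measured binding site.

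In the Slc6 family, Slc6a14, Slc6a15 and Slc6a9 had their highest signals at Day0. Slc6a14 (Entrez gene 56774), an apical carrier of lung and gut epithelium that concentrates neutral and cationic amino acids, read 10.67, 9.64, 8.60 and 5.09. The signal was lower on doxycycline, lower again after withdrawal and dim in iPS cells, where it was 47.7-fold under Day0, rank 90 from the lowest among all named genes. Withdrawn cells thus lay further from Day0 than 3w+Dox did, while for Slc1a1 they lay nearer. The alveolar type 2 markers had medians of 12.67, 10.83, 10.99 and 5.67 on these arrays, although Sftpc among them read 13.49, 13.39, 13.54 and 5.50. Alveolar type 1 medians were 11.59, 9.50, 9.79 and 5.91, and club cell medians 13.52, 12.44, 13.04 and 4.18. All of these medians were highest at Day0, lowest in iPS cells and higher after withdrawal than on doxycycline. The part of these cell types in the Slc6a14 values was not tested.

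Slc6a15 (Entrez gene 103098), a carrier of branched-chain amino acids and proline best known from neurons, read 9.49, 6.35, 4.70 and 7.49. Its iPS signal was 3.99-fold below Day0, just under the 4-fold line. Withdrawn cells were lowest, 27.7-fold below Day0, rank 13 from the lowest in that comparison, and both signals of the treated cultures were under 6.67. The size of that difference is imprecise, since 4.70 lies below the 25th percentile of all signals (5.07), and with dim signals raised to it the difference was -4.42 in place of -4.79. Slc6a9, a glycine carrier, read 11.77, 10.16, 10.11 and 8.57. It was 3.05-fold below Day0 at 3w+Dox and 9.20-fold below in iPS cells. Slc6a17, a vesicular carrier of neutral amino acids in neurons, read 6.66, 8.13, 7.79 and 6.58 and was higher in the treated cultures, 2.77-fold above Day0 at 3w+Dox.

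The carriers of taurine and creatine were bright throughout. Slc6a6, which imports taurine, read 11.02, 11.31, 11.15 and 11.35, within 1.26-fold of Day0. Slc6a8, which imports creatine, read 10.24, 11.50, 11.85 and 11.48, so Day0 was the low array, by 2.39-fold against 3w+Dox and 3.05-fold against withdrawn cells. The Slc43 carriers of large neutral amino acids had opposite patterns in iPS cells. Slc43a1 read 6.75, 6.89, 6.36 and 8.18 and was 2.70-fold above Day0 in iPS cells, while Slc43a2 read 9.98, 8.81, 8.87 and 8.17 and was 3.50-fold below. Slc43a3, which carries purine bases, read 9.79, 9.20, 9.94 and 8.76.

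Differences between withdrawn cells and 3w+Dox were few over all named genes, and the transporters' share was near that background. Between withdrawn cells and 3w+Dox 0 of the 60 genes were called at 4-fold, beside 0.772% of the named genes in all, 0.302% higher and 0.470% lower. At 2-fold, 1 gene was higher (Slc1a1) and 2 were lower (Slc6a14 and Slc7a3), 3 in all beside 3.34% of all named genes, or 1.45% higher and 1.88% lower. Slc6a15 was lower by a further 3.16-fold, but both of its signals were under 6.67. Of the members called at 4-fold at 3w+Dox, Slc38a4 and Slc7a8 differed from 3w+Dox by under 0.1 log2 units. The withdrawn signal lay nearer to Day0 by 9.18% of the log2 difference for Slc7a5 and 31.2% for Slc1a1. For Slc7a4, Slc38a11 and Slc6a15 no such share is given, since both signals of the cultures were under 6.67. The ciliated markers had medians of 11.12 at Day0, 5.57 on doxycycline and 8.79 after withdrawal. The club cell marker Scgb3a2 read 10.21, 6.25 and 8.81 in the same order. The part of ciliated and club cells in the Slc1a1 values was not tested.

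Set against the doxycycline-treated cultures, iPS cells had 7 transporter genes called against 3w+Dox at 4-fold, beside 8.73% of all named genes, 3 of them higher and 4 lower, beside 3.57% and 5.16%. The higher genes were Slc7a3, Slc38a3 and Slc38a4, and the lower genes were Slc6a14, Slc7a2, Slc7a11 and Slc36a4. Against withdrawn cells 8 were called, beside 8.88%, 4 higher and 4 lower, beside 3.83% and 5.05%, with Slc6a15 added to the higher ones by 6.93-fold. At 2-fold 16 were called against 3w+Dox, beside 23.8%, 7 higher and 9 lower, beside 11.4% and 12.4%. Against withdrawn cells 18 were, beside 24.0%, 8 higher and 10 lower, beside 11.5% and 12.5%. Over the 38 members at or above 6.67 on some array, 14 were brightest at Day0, 8 on doxycycline, 5 after withdrawal and 11 in iPS cells, which is 36.8%, 21.1%, 13.2% and 28.9%, against 30.3%, 15.6%, 16.0% and 38% of all such genes.

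**Figure D3:**
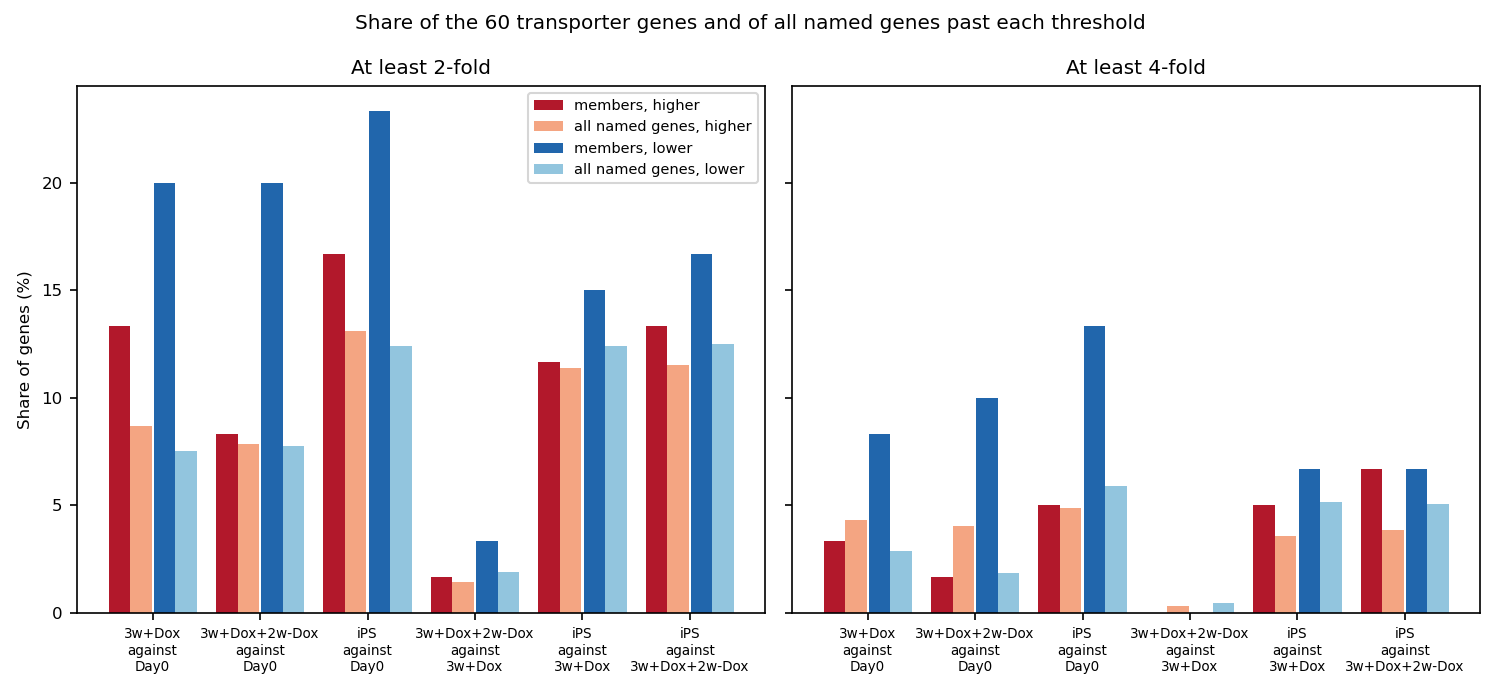
Share of the 60 transporter genes and of all 23185 named genes (y axis, percent) called higher or lower in each of 6 comparisons (x axis), at 2-fold (left) and 4-fold (right). Bars start at 0 and have no error, since each population has 1 array. The members' bars for lower signals stand above the background in the 3 comparisons with Day0 (at 4-fold 8.33% beside 2.88% for 3w+Dox, 10% beside 1.85% for withdrawn cells and 13.3% beside 5.90% for iPS cells). At 2-fold the bars for higher signals do so as well (13.3% beside 8.67%, 8.33% beside 7.85% and 16.7% beside 13.1%, in the same order).

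Of 29 measured genes that answer amino acid shortage, many of them Atf4 targets, 11 exceeded Day0 at least 2-fold on doxycycline and 1 was that much lower, beside 8.67% and 7.52% of all named genes. The median difference was 0.78, against -0.09 over all named genes. After withdrawal 10 were higher and 3 lower, beside 7.85% and 7.76%, with a median of 0.43 against -0.08. In iPS cells 11 were higher and 5 lower, beside 13.1% and 12.4%, with a median of 0.22 against 0.00. Mthfd2, a mitochondrial folate enzyme, read 6.47, 9.58, 9.43 and 10.34. Asns, which makes asparagine, read 10.17, 11.52, 11.28 and 12.73, and Psat1, an enzyme of serine synthesis, read 8.76, 10.31, 9.76 and 11.63. All 3 were lowest at Day0 and highest in iPS cells, as Slc7a5 was. Other called genes of the list had other profiles. Vldlr read 6.35, 8.94, 8.91 and 7.01 and was highest at 3w+Dox. Nupr1 read 12.51, 12.31, 12.41 and 9.74 and was low in iPS cells alone. Atf4 itself read 8.47, 8.50, 8.49 and 8.61, and its protein was not measured. Atf3 was lowest in iPS cells, at 11.94, 9.28, 9.99 and 7.15. Ddit3, a stress factor, read 7.65, 8.73, 9.05 and 7.83, Chac1, which degrades glutathione, was higher at 3w+Dox by 1.61, and Cth, which makes cysteine, read 8.29, 9.95, 6.42 and 10.28.

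Genes that load amino acids onto tRNA were mostly higher in iPS cells. Of 22 measured aminoacyl-tRNA synthetases and their scaffold proteins, 21 lay above Day0, 13 of them at least 2-fold, where 13.1% of all named genes were that much higher. Their median difference was 1.36 in iPS cells, 0.45 at 3w+Dox and 0.26 in withdrawn cells. Gars, for glycine, read 9.46, 10.79, 10.60 and 11.74, and Wars, for tryptophan, was the exception, at 11.11, 12.10, 10.70 and 10.91.

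Enzymes that use amino acids held calls in both directions. Of 52 measured, 5 were at least 4-fold higher and 5 lower at 3w+Dox, beside 4.31% and 2.88% of all named genes, with a median of -0.22 against -0.09. After withdrawal 5 were higher and 5 lower, beside 4.05% and 1.85%, with a median of -0.26 against -0.08. In iPS cells 6 were higher and 4 lower, beside 4.89% and 5.90%, with a median of 0.39 against 0.00. Gldc, which cleaves glycine for folate metabolism, read 5.83, 5.77, 5.47 and 11.28 and was bright in iPS cells alone. Bcat1, which starts the breakdown of branched-chain amino acids, the substrates of Slc7a5, read 5.31, 9.35, 8.67 and 10.77. Arg1, which splits arginine and is known from macrophages, read 6.35, 8.80, 9.46 and 7.06. Leukocyte marker medians on these arrays were 6.47, 10.24, 11.12 and 6.89, and the part of leukocytes in the Arg1 values was not tested. Mat1a, which makes S-adenosylmethionine, and Cbs, which starts cysteine synthesis, were higher at Day0 than on doxycycline, with Mat1a at 10.97, 7.13, 7.88 and 6.03 and Cbs at 9.59, 6.11, 6.47 and 9.26.

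Of 26 measured glutathione and cystine genes, 9 were at least 2-fold lower and 2 higher in iPS cells than at Day0, beside 12.4% and 13.1% of all named genes, with a median of -0.60 against 0.00 over all named genes. At 3w+Dox 2 were higher and 4 lower, near the 8.67% and 7.52% of all named genes, with a median of -0.08 against -0.09. Gss, glutathione synthetase, read 10.75, 9.40, 8.91 and 8.35. Cd44, whose protein stabilises Slc7a11 at the cell surface, read 10.68, 10.62, 10.37 and 7.57, while Gclm, a subunit of the enzyme that starts glutathione synthesis, was flat at 11.36, 11.12, 11.01 and 11.11. Gclc, its catalytic partner, read 11.65, 10.46, 11.03 and 10.06, and Nfe2l2, the factor Nrf2 that drives many of these genes, read 12.41, 12.58, 11.82 and 11.58.

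Of 36 measured genes of lysosomal amino acid sensing, 0 were called at 4-fold at 3w+Dox and 0 after withdrawal, beside 7.19% and 5.90% of all named genes, and 1 was in iPS cells (Fnip2, higher by 2.48), beside 10.8%. At 2-fold 1 was higher and 3 lower at 3w+Dox, beside 8.67% and 7.52%, and the same counts held after withdrawal, beside 7.85% and 7.76%. In iPS cells 5 were higher and 1 lower at 2-fold, beside 13.1% and 12.4%. Mtor read 9.12, 9.15, 9.15 and 9.60. Among 17 other amino acid and peptide carriers, 0 were higher and 2 lower at 3w+Dox at 4-fold, beside 4.31% and 2.88% of all named genes. These were Slc6a20a, a proline carrier outside the symbol rule, at 9.89, 6.56, 7.10 and 6.15, and Slc15a2, a peptide carrier, at 9.01, 6.62, 7.19 and 6.04. Like Slc1a1 and Slc7a4, both were highest in the fresh isolate. Of 14 mitochondrial carriers, 1 was called at 4-fold at 3w+Dox (Sfxn2, a serine carrier relative, at -2.25), beside 7.19% of all named genes, and 1 in iPS cells (Slc25a13, an aspartate and glutamate carrier, at 2.38), beside 10.8%.

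**Figure D4:**
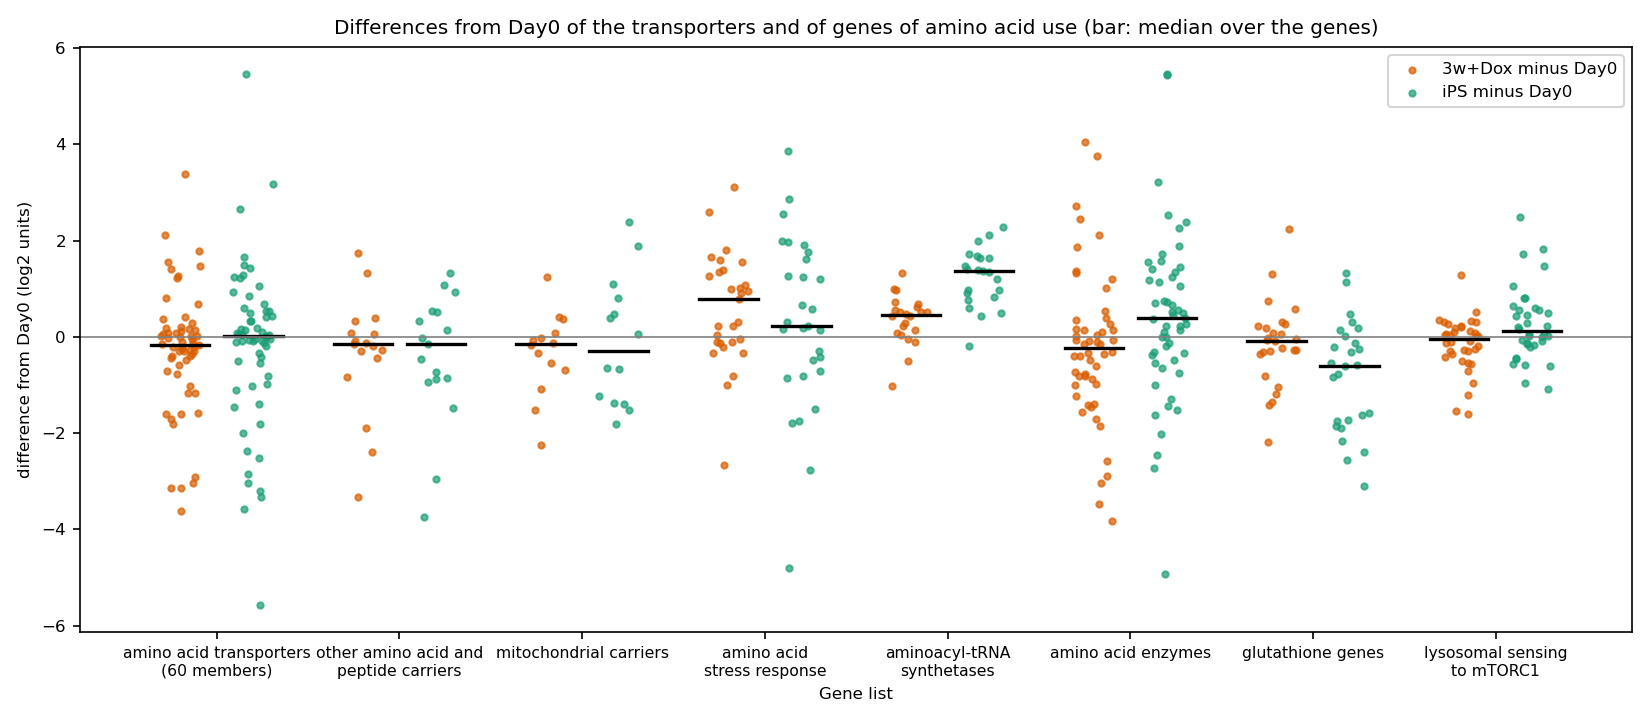
Difference from Day0 (y axis, log2 units) of each measured gene in the transporter set and in 7 lists of related genes (x axis), for 3w+Dox and iPS cells. Points are genes, jittered sideways, and bars are medians over genes. The transporter medians lie near 0 (-0.16 and 0.01), the aminoacyl-tRNA synthetase median is 1.36 in iPS cells, and the glutathione median is -0.60.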

How the data were processed

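RMA, affy and R 3.0.2 stand in the submitters' processing notes as what the authors used for the deposited log2 signals; their log2 scale was inferred from the range, 1.70 to 13.85. Of 25206 probe sets, 2021 had no symbol in the platform annotation and were not used. Annotation version and build: not given in the sources used here. Groups came from sample titles. Differences, calls, counts and medians were computed with Python 3.11.15, numpy 2.4.6 and pandas 2.3.3, without further normalization. The working of the call rule was checked on copies of the Day0 array with simulated noise. The size of that noise was assumed, so the check gives no measure of how reliable the calls are. Values on all 4 arrays are given for members called at 4-fold against Day0 and for a fixed set; those of Slc1a2, Slc1a6, Slc6a17, Slc36a2, Slc38a5, Slc38a6, Slc38a7 and Slc38a10, and Wars of the lists, were added after they were seen. Of 7 lists of related genes, called genes with the largest differences and a few fixed ones are named; 18 list genes were not analysed here. The members and lists were chosen with earlier results of these data known, and the motifs after promoters had been scanned. Alternatives were other thresholds, filters, normalizations, a floor and the mean.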

Additional observations from a re-analysis of the deposited data

How the results depend on the processing

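The 32 calls at 4-fold in the 5 comparisons without the pair of iPS and withdrawn cells kept their direction under every alternative tried. That could hardly have come out otherwise and is no measure of stability. Thresholds and filters leave a difference unchanged, and the rescalings shifted the median over all named genes by at most 0.085 log2 units in these comparisons. All 32 also stayed called with a second quantile normalization, without a filter on dim signals and with dim values raised to the 25th percentile (5.07). With arrays centred on bright genes 31 did, Slc6a14 in withdrawn cells then differing from Day0 by -1.98, and 2 genes were higher and 5 lower in withdrawn cells. With the brighter array at or above the 75th percentile (8.82) 25 did, and at 8-fold 18 did. The counts depend on the threshold. At 2-fold they were 20 for 3w+Dox, 17 for withdrawn cells and 24 for iPS cells against Day0, 3 for withdrawn cells and 16 for iPS cells against 3w+Dox, and 18 for iPS against withdrawn cells. At 8-fold they were 3 for withdrawn and 7 for iPS cells against Day0, and 3 for iPS cells against each treated culture. With the 75th percentile filter 4 members were called between iPS and withdrawn cells, 4 were brightest at 3w+Dox, and 19 at 3w+Dox and 16 in iPS cells passed the level. After centring 8 were brightest in withdrawn cells. Medians over members are near 0 and their sign is not stable. Against Day0 the mean was -0.27 on doxycycline, -0.29 after withdrawal and -0.20 in iPS cells. Without the 22 dim members the median was -0.0089 at 3w+Dox and -0.14 in iPS cells against Day0, -0.0022 in iPS cells against 3w+Dox and -0.29 against withdrawn cells. The cause was not tested. No paired analysis was possible because each group has 1 array. With no replicates, the size of a difference that arrays of 1 population would show among themselves is unknown.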
